A study of Homo sapiens with 3 samples.

Results

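The keratins described here are 10 epithelial intermediate filament genes of the 19225 gene symbols in the deposited table: 6 keratins of basal and activated stratified epithelium (KRT5, KRT6A, KRT6B, KRT14, KRT16 and KRT17) and 4 keratins of simple epithelium (KRT7, KRT8, KRT18 and KRT19). Members were chosen by gene symbol. Where a gene had several RefSeq transcripts, the transcript with the highest summed count over the 3 libraries stood for it. The samples were 5637 cells, an established human bladder cancer line with the genotype labelled WT, grown as 1 line throughout. The siCDCA3 group held 2 libraries, siCDCA3-1 and siCDCA3-2, from cells transfected with siRNA against the cell division cycle gene CDCA3, and the siNC group held 1 library from cells transfected with the siNC siRNA. The labels give no time after transfection and do not say whether the numbers 1 and 2 stand for different siRNA sequences or repeated cultures. P-values below therefore measure the spread between libraries, which may be technical. The fit has to apply the spread of the siCDCA3 pair to the lone siNC library. In the fit with genes of low level left out, edgeR drew each gene's spread mostly from the other genes (12 prior against 1 residual degree of freedom).

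Keratins assemble as pairs of an acidic type I and a basic type II chain. KRT5, KRT6A, KRT6B, KRT7 and KRT8 are type II, and KRT14, KRT16, KRT17, KRT18 and KRT19 are type I. In stratified epithelium KRT5 and KRT14 are the pair of the basal layer, whereas KRT6A, KRT6B, KRT16 and KRT17 are known from epithelium that is wounded, stressed or proliferating. KRT8 and KRT18 are the founding pair of simple epithelium, KRT7 and KRT19 often accompany them, and in bladder cancer KRT5, KRT6 and KRT14 mark the basal and squamous subtype.

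Libraries held 40420563 (siCDCA3-1), 62389922 (siCDCA3-2) and 50912733 (siNC) gene-level counts. Levels are given in RPKM, read counts divided by transcript length and by library total, as the authors deposited them. The totals recovered from the deposited counts, lengths and RPKM were 104153360 (siCDCA3-1), 160640877 (siCDCA3-2) and 130459616 (siNC). They exceed the gene-level counts, so every RPKM here is lower than it would be on those counts. The siCDCA3 libraries differed more from each other (chi-square of 303 per degree of freedom over gene counts, a measure that grows with depth) than siCDCA3-1 (136) or siCDCA3-2 (256) differed from siNC, so values are given for each. CDCA3 itself had 0.574 RPKM in siCDCA3-1 and 1.40 RPKM in siCDCA3-2, against 5.52 RPKM in siNC. All 5 markers of epithelial cells (EPCAM, CDH1, KRT8, KRT18 and KRT5) exceeded 1 RPKM, the keratins among them being members themselves. The 5 markers of differentiated urothelium, which include 4 uroplakins and KRT20, had summed levels of 0.859 and 0.206 RPKM in the siCDCA3 libraries, against 0.445 RPKM in siNC, and none reached 1 RPKM in any library. Markers of other cell types were low, with summed levels of 1.40 to 2.71 RPKM for leukocytes, 2.37 to 10.0 RPKM for fibroblasts and pericytes, 0.0337 to 0.104 RPKM for endothelium and 0.125 to 0.159 RPKM for smooth muscle. Of these markers CD68, COL1A1 and LUM reached 1 RPKM in at least 1 library, and the highest fibroblast value was 8.33 RPKM. The fibroblast sum was 10.0 RPKM in siCDCA3-1 and 2.37 RPKM in siCDCA3-2, against 7.23 RPKM in siNC, so it was not displaced to the same side in both siCDCA3 libraries.

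All 6 basal keratins were lower in both siCDCA3 libraries than in siNC, while only 1 of the 4 simple keratins, KRT19, was. Over all 10153 tested genes, those with a mean of at least 1 RPKM, 27.8% were lower than siNC in both siCDCA3 libraries on the log2(RPKM + 1) scale, 23.6% were higher in both and 48.5% went opposite ways. Because siNC is the common denominator, the differences of both siCDCA3 libraries share its deviations. Over all 6 basal members the median log2(RPKM + 1) differences were -0.99 in siCDCA3-1 and -1.03 in siCDCA3-2, and over the 4 simple members they were 0.083 and -0.13. Over the 4 basal members among the tested genes, all lower in both, the medians were -1.12 and -1.35. The medians over all tested genes were -0.067 and 0.046. No member passed edgeR's quasi-likelihood test after Benjamini-Hochberg adjustment over all tested genes, in which 0.0295% of genes were called lower and 0% higher. KRT6B and KRT14 had mean levels under 1 RPKM and were not in that test, which leaves 8 of the 10 members tested. Members were chosen with earlier results of these libraries known, and the counts and medians are a description.

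**Figure D1:**
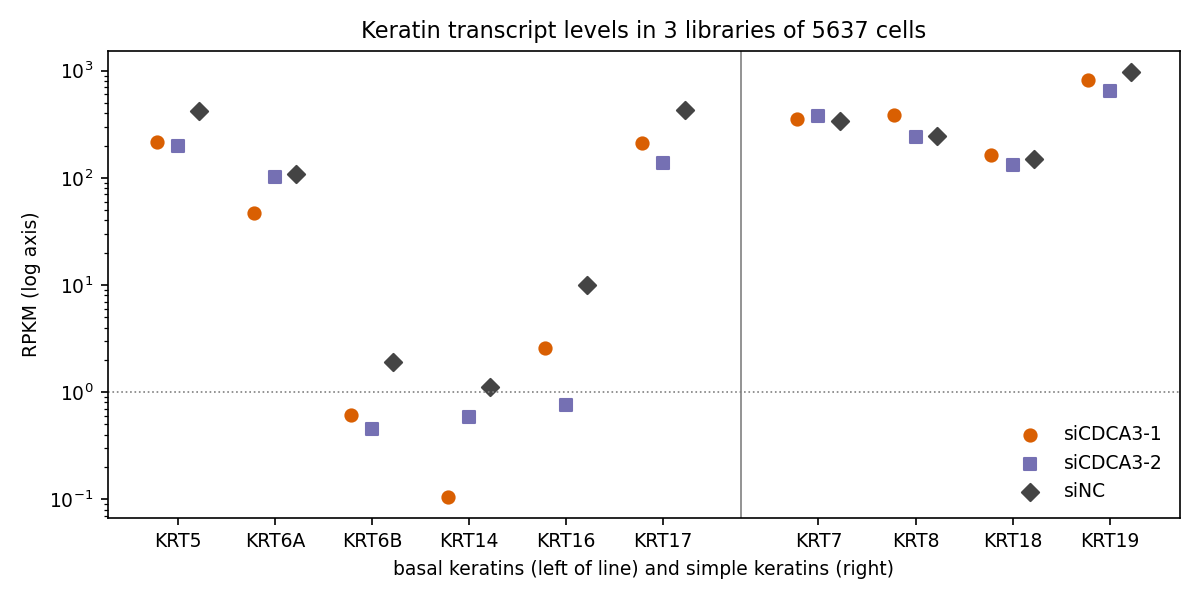
RPKM of each keratin (log axis) in siCDCA3-1, siCDCA3-2 and siNC, 1 point per library, with a dotted line at 1 RPKM. For each of the 6 basal keratins the siNC point is the highest of the 3, whereas among simple keratins this holds for KRT19 only.

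KRT5 is the type II keratin of the basal layer (NM_000424.3, 9 exons on the minus strand of GRCh38 chromosome 12, gene bounds 52514575 to 52520394). It had 218 RPKM in siCDCA3-1 and 200 RPKM in siCDCA3-2, against 421 RPKM in siNC. Both siCDCA3 libraries were below siNC and nearer to each other than to siNC. As a percentage of siNC, KRT5 stood at 51.8% (51.3% to 52.3%) in the siCDCA3-1 library and at 47.5% (47.1% to 47.9%) in the siCDCA3-2 library, where the brackets give exact 95% binomial intervals, for counting error only, here and below. edgeR estimated a log2 fold change of -0.99 ± 0.53 (SE, unadjusted p = 0.08097 and adjusted p = 0.9997). Among all gene symbols KRT5 held rank 109 by RPKM in siCDCA3-1 and rank 114 in siCDCA3-2, against rank 43 in siNC.

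Of the 10 members, KRT5 and KRT8 had an entry in the RefSeq promoter table of GRCh38.p14, which holds 250 bases before and 50 bases after a start. Both strands were searched for the AP-1 motif TGANTCA, the GC box GGGCGG, the CACCC box CACCC and the TATA box TATAAA. The KRT5 window held 1 match to CACCC and 0 to the others, while 59.9% of the 35116 promoters in the table held CACCC, 45% the GC box, 11.5% the TATA box and 7.71% the AP-1 motif. The CACCC match starts 147 bases before the RefSeq start, but the GENCODE 29 transcript paired with the same accession begins 293 bases further upstream, so the window lies within that transcript and its sequence is not shown. The KRT8 window lies 19851 bases upstream of the start of the KRT8 transcript used here. A match describes letters only.

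KRT17 is a type I keratin of activated and basal epithelium (NM_000422.2, 8 exons, chromosome 17, 41619442 to 41624575). It had 210 RPKM in siCDCA3-1 and 138 RPKM in siCDCA3-2, against 429 RPKM in siNC. Its level was 49.0% of siNC in siCDCA3-1 (48.3% to 49.6%) and 32.1% in siCDCA3-2 (31.7% to 32.5%), with siCDCA3-2 the lowest library and siCDCA3-1 between it and siNC. edgeR estimated a log2 fold change of -1.28 ± 0.54 (SE, unadjusted p = 0.03372 and adjusted p = 0.9997). In siNC KRT5 and KRT17 stood at nearly equal levels per length, with a KRT5 to KRT17 ratio of 0.981, and the ratio was 1.04 in siCDCA3-1 and 1.45 in siCDCA3-2. KRT5 and KRT17 together made up 89.6% of the summed basal RPKM in siCDCA3-1 and 76.5% in siCDCA3-2, against 87.4% in siNC.

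KRT16, a type I keratin induced in wounded and hyperproliferative epidermis, showed the largest ratio between groups among the members in the edgeR fit. It had 2.57 RPKM in siCDCA3-1 and 0.761 RPKM in siCDCA3-2, against 9.90 RPKM in siNC, from 459, 210 and 2220 counts in that order. KRT16 thus stood at 25.9% (23.4% to 28.6%) and 7.68% (6.64% to 8.85%) of siNC, and siCDCA3-1 was at 337% of siCDCA3-2 (286% to 399%). edgeR estimated a log2 fold change of -2.53 ± 0.70 (SE, unadjusted p = 0.003127 and adjusted p = 0.9997). KRT16 was called lower by edgeR once low genes were kept in (adjusted p = 0.01745), and over the 7 tested settings its adjusted p ran from 0.01745 to 0.99997. The fit with low genes kept in also estimated spread differently. Member p-values there matched a normal distribution, so a gene's own spread had next to no weight. The standard error of KRT16 was 0.60 in that fit, against 0.70 with low genes left out. KRT16 and KRT17 were the only members with an unadjusted p under 0.05 in the edgeR fit, where 0.965% of tested genes had such a p and a lower level. They were also the only members at least 1 lower in both siCDCA3 libraries on the log2(RPKM + 1) scale, a criterion that 0.719% of tested genes met.

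KRT6A, the type II keratin that pairs with KRT16, differed between the siCDCA3 libraries. It had 46.6 RPKM in siCDCA3-1 and 102 RPKM in siCDCA3-2, against 109 RPKM in siNC. The siCDCA3-1 library was low, at 42.7% of siNC (41.8% to 43.6%), whereas siCDCA3-2 was near siNC, at 93.3% (92.0% to 94.7%). edgeR estimated a log2 fold change of -0.57 ± 0.55 (SE, adjusted p = 0.9997). The siCDCA3-1 level was 45.7% of the siCDCA3-2 level (44.8% to 46.7%), whereas for KRT16 siCDCA3-1 was the higher of the siCDCA3 libraries, so the type II and type I chains of this pair were ordered oppositely.

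KRT6B and KRT14 were near or under 1 RPKM in every library except KRT6B in siNC. KRT6B, a near copy of KRT6A, had 0.614 RPKM in siCDCA3-1 and 0.456 RPKM in siCDCA3-2, against 1.90 RPKM in siNC, from 146, 167 and 567 counts. KRT14, the usual type I partner of KRT5, had 0.106 RPKM in siCDCA3-1 and 0.590 RPKM in siCDCA3-2, against 1.11 RPKM in siNC, from 18, 155 and 237 counts. At 421 RPKM of KRT5 in siNC, these cells thus carried KRT5 with little KRT14 transcript. With low genes kept in, edgeR gave log2 fold changes of -1.87 for KRT6B (standard error 0.73) and -1.77 for KRT14 (standard error 0.84), each with an adjusted p of 0.9999. In siCDCA3-1 KRT14 was at 9.51% of its siNC level (5.54% to 15.4%) and in siCDCA3-2 at 53.1% (43.1% to 65.3%).

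The simple keratins were led by KRT19, a type I chain that lacks the usual tail domain (NM_002276.4, 6 exons, chromosome 17, 41523617 to 41528308). It had 822 RPKM in siCDCA3-1 and 643 RPKM in siCDCA3-2, against 972 RPKM in siNC, and held ranks 12, 9 and 6 by RPKM in that order. KRT19 was at 84.5% (83.9% to 85.1%) and 66.1% (65.7% to 66.6%) of its siNC level, the only simple keratin lower in both siCDCA3 libraries. edgeR estimated a log2 fold change of -0.39 ± 0.56 (SE, adjusted p = 0.9997).

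KRT7, a type II chain of glandular and transitional epithelium, was the only member higher than siNC in both siCDCA3 libraries, and by little. It had 356 RPKM in siCDCA3-1 and 377 RPKM in siCDCA3-2, against 341 RPKM in siNC. These levels were 105% (103% to 106%) and 111% (110% to 112%) of siNC, and edgeR estimated a log2 fold change of 0.12 ± 0.54 (SE, adjusted p = 0.9997).

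KRT8 and KRT18, the usual pair of simple epithelium, lie side by side on chromosome 12, where KRT18 is the single type I gene among type II genes. KRT8 had 385 RPKM in siCDCA3-1 and 238 RPKM in siCDCA3-2, against 246 RPKM in siNC, so siCDCA3-1 stood above the other libraries. KRT18 had 162 RPKM in siCDCA3-1 and 130 RPKM in siCDCA3-2, against 151 RPKM in siNC, with siNC between the siCDCA3 libraries. The KRT8 level in siCDCA3-1 was 156% of siNC (155% to 158%) and that of KRT18 was 107% (106% to 109%). The KRT8 to KRT18 ratio was 2.37 in siCDCA3-1 and 1.83 in siCDCA3-2, against 1.63 in siNC. For KRT8 edgeR estimated a log2 fold change of 0.37 ± 0.58 and for KRT18 -0.027 ± 0.52 (SE), each with an adjusted p of 0.9997. The 3 KRT8 transcripts listed all gave 156% of siNC in siCDCA3-1 and from 96.6% to 97.7% in siCDCA3-2. The annotated bounds of KRT8 and KRT18 overlap on opposite strands, but the KRT8 transcript used (52897194 to 52906618) does not reach that of KRT18 (52948964 to 52952901). KRT7 encloses an antisense gene, KRT7-AS, and without knowledge of strand use in counting their reads cannot be told apart.

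**Figure D2:**
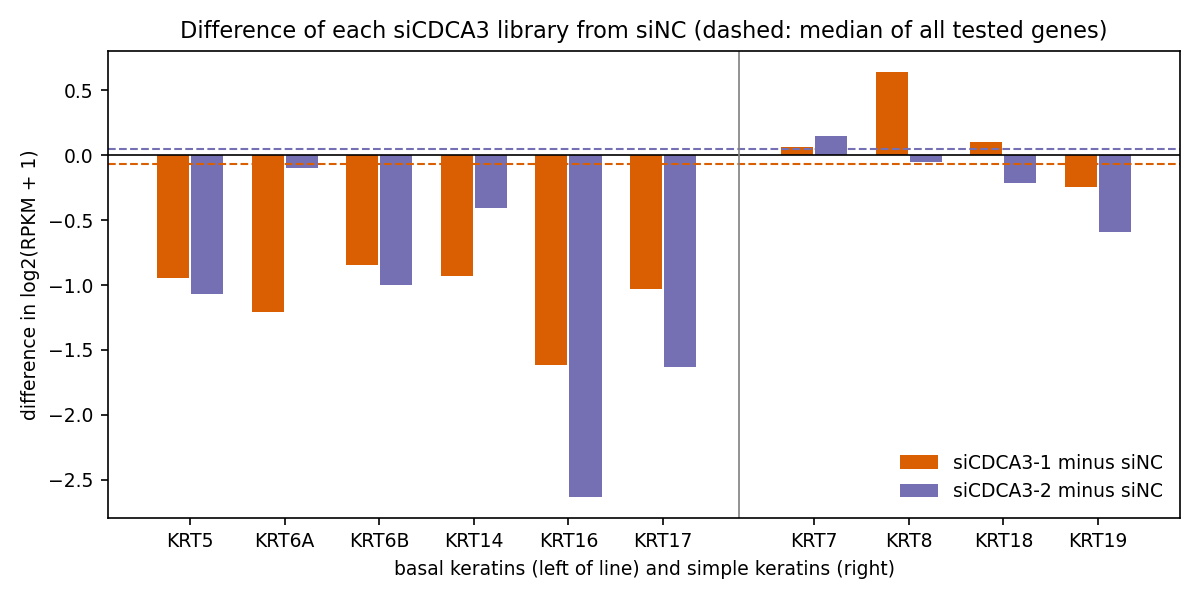
Difference of each siCDCA3 library from siNC in log2(RPKM + 1) for the 10 keratins, with dashed lines at the medians over all tested genes (-0.067 in siCDCA3-1 and 0.046 in siCDCA3-2). Bars of all 6 basal keratins point down in both libraries, from -0.098 for KRT6A to -2.63 for KRT16 in siCDCA3-2, while KRT8 and KRT18 point opposite ways in the siCDCA3 libraries.

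Summed over members, basal keratins reached 478 RPKM in siCDCA3-1 and 442 RPKM in siCDCA3-2, against 972 RPKM in siNC. The siCDCA3 sums were 49.2% and 45.4% of the siNC sum. Simple keratins summed to 1725 RPKM in siCDCA3-1 and 1389 RPKM in siCDCA3-2, against 1710.3 RPKM in siNC, that is 101% and 81.2% of siNC. The ratio of basal to simple RPKM, which is formed within a library and does not depend on scaling between libraries, was 0.277 in siCDCA3-1 and 0.318 in siCDCA3-2, against 0.568 in siNC. Its log2 difference from siNC averaged -0.94 ± 0.14 (SD, n = 2 siCDCA3 libraries), compared with -1.08 ± 0.08 for the basal sum and -0.14 ± 0.22 for the simple sum (SD, n = 2 each). The difference of the simple sum was thus smaller than the spread between the siCDCA3 libraries, and those of the basal sum and of the ratio were larger. The SD of the basal sum was 0.18 after rescaling RPKM by edgeR's TMM factors. With basal taken as KRT5, KRT14 and KRT17 it was 0.24. None of these SDs holds the error of the lone siNC library. No test was made on these sums, because 2 against 1 libraries allow 3 assignments and an exact permutation test could not go below a one-sided p of 0.333. In a bulk library, fewer cells with basal keratins and less basal keratin RNA per cell cannot be told apart.

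**Figure D3:**
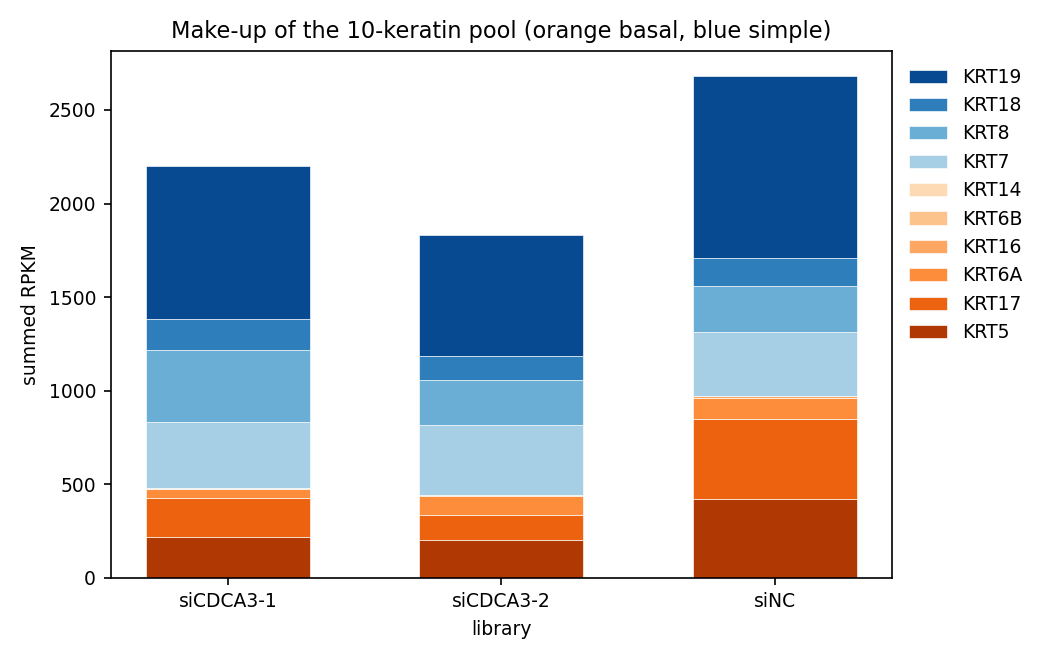
Summed RPKM of the 10 keratins in each library, stacked by gene, with basal keratins in orange below and simple keratins in blue above. The basal part is 478 and 442 RPKM in siCDCA3-1 and siCDCA3-2 and 972 RPKM in siNC, and KRT5 and KRT17 fill most of it.

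The make-up of the 10-keratin pool differed accordingly. Basal keratins were 21.7% of the pool in siCDCA3-1 and 24.1% in siCDCA3-2, against 36.2% in siNC. KRT19 kept a similar share, with 37.3% and 35.1% in the siCDCA3 libraries and 36.2% in siNC. KRT8 made up 17.5% and 13.0% in the siCDCA3 libraries, against 9.18% in siNC, and KRT7 made up 16.2% and 20.6%, against 12.7% in siNC. Type I chains summed to 1197 RPKM in siCDCA3-1 and 913 RPKM in siCDCA3-2, against 1564 RPKM in siNC, and type II chains to 1006 and 917 RPKM, against 1119 RPKM in siNC. The type I to type II ratio was 1.19 in siCDCA3-1 and 0.995 in siCDCA3-2, against 1.40 in siNC. Within the simple members alone it was 1.33 in siCDCA3-1 and 1.26 in siCDCA3-2, against 1.91 in siNC. Within the basal members it was 0.802 in siCDCA3-1 and 0.460 in siCDCA3-2, against 0.827 in siNC, so siCDCA3-1 was near siNC and siCDCA3-2 was low.

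**Figure D4:**
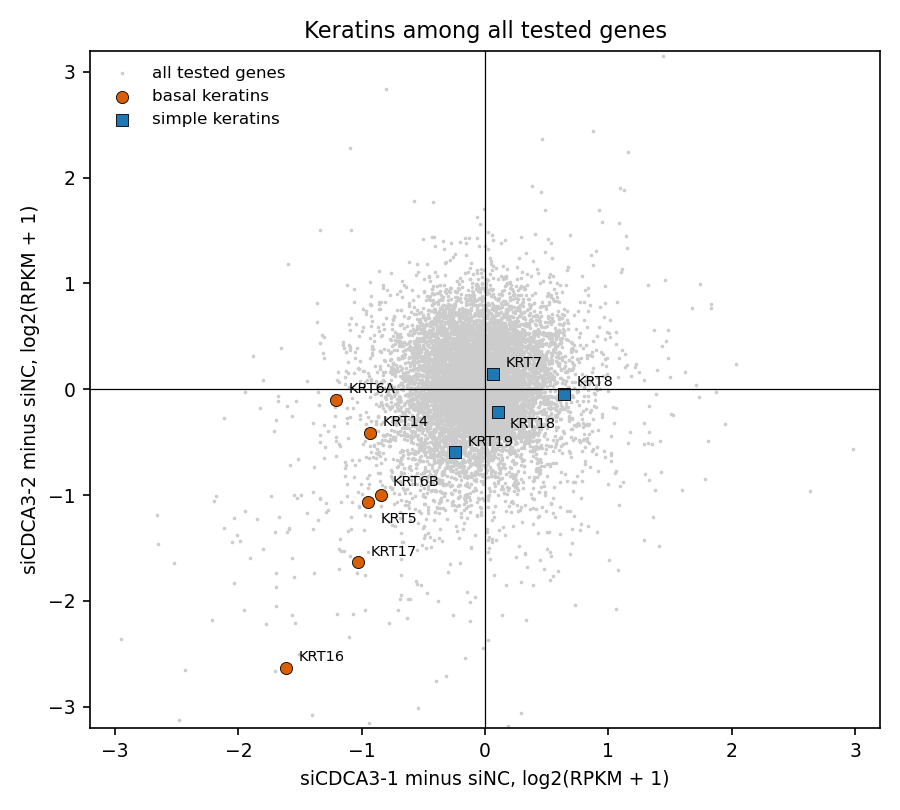
Difference from siNC in log2(RPKM + 1) in siCDCA3-1 (x axis) and siCDCA3-2 (y axis) for all tested genes (grey, 12 of them beyond the axes) and the 10 keratins (KRT6B and KRT14 are drawn although they were not tested). Of the basal keratins 5 lie at the lower left and KRT6A lies at the left, near 0 on the y axis (-0.098). The simple keratin KRT19 also lies at the lower left (-0.242 and -0.595). KRT7, KRT8 and KRT18 lie within or at the edge of the grey cloud. KRT14 (-0.933 and -0.409) has tested genes such as ALKBH5 (-0.975 and -0.492) close by. Both axes share the siNC library.

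The 45 other keratin genes of the table summed to 42.3 RPKM in siCDCA3-1 and 40.9 RPKM in siCDCA3-2, against 43.0 RPKM in siNC. Of these, 40 were under 1 RPKM in every library, the highest at 0.289 RPKM, and 5 were tested, 2 of them lower and 2 higher than siNC in both siCDCA3 libraries, with no call. KRT23, a type I keratin, had 7.12 and 5.84 RPKM in the siCDCA3 libraries, against 9.80 RPKM in siNC. KRT80, a type II keratin, had 11.2 and 15.3 RPKM, against 8.84 RPKM in siNC. KRT10, a type I keratin of the suprabasal epidermis, had 10.0 and 13.0 RPKM, against 13.6 RPKM in siNC. KRT13, of suprabasal mucosa and urothelium, had 7.97 and 2.48 RPKM, against 6.77 RPKM in siNC. KRT15, a basal type I keratin, had 5.19 and 2.93 RPKM, against 2.89 RPKM in siNC, and was not lower in either siCDCA3 library.

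Anchors of the keratin network, the plakins, desmosomal proteins and hemidesmosome components, were mixed. Among the 18 tested genes 5 stood below and 5 above siNC in both siCDCA3 libraries, with no call and medians of 0.058 in siCDCA3-1 and -0.17 in siCDCA3-2. The desmosomal plaque protein PKP1 had 2.00 and 3.14 RPKM in the siCDCA3 libraries, against 8.55 RPKM in siNC (edgeR log2 fold change -1.74, unadjusted p = 0.002894, adjusted p = 0.9997). DSG3, the desmosomal cadherin of basal keratinocytes, had 1.57 and 1.01 RPKM, against 2.54 RPKM in siNC. DST, whose epithelial form links KRT5 and KRT14 filaments to hemidesmosomes, had 2.26 and 1.70 RPKM, against 0.921 RPKM in siNC. These values are of a DST transcript of 17758 bases, and whether they stand for the epithelial form was not tested.

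Other proteins that bind or organise keratin filaments counted 7 tested genes, 3 lower and 2 higher than siNC in both siCDCA3 libraries, with no call. EPPK1, an epiplakin that bundles keratins, had 3.49 and 4.92 RPKM, against 2.14 RPKM in siNC. TCHP (trichoplein), which binds keratin filaments, had 3.50 and 3.37 RPKM, against 4.23 RPKM in siNC, and FBF1 had 1.97 and 2.65 RPKM, against 2.86 RPKM in siNC. Of 8 tested genes of other intermediate filaments, 5 were higher and 1 lower than siNC in both siCDCA3 libraries, with no call, beside 23.6% and 27.8% of all tested genes. SYNM (synemin) had 1.77 and 1.82 RPKM, against 0.960 RPKM in siNC, SYNC (syncoilin) had 5.23 and 6.22 RPKM, against 4.45 RPKM in siNC, and the lamin gene LMNA had 53.3 and 55.5 RPKM, against 46.7 RPKM in siNC. VIM, the mesenchymal filament gene, had 8.53 and 9.33 RPKM, against 8.38 RPKM in siNC.

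Genes of the cornified envelope and squamous differentiation were mostly near 0. Of 33 listed, 10 were tested, 4 of them lower and 2 higher than siNC in both siCDCA3 libraries, with medians of 0.007 and -0.52 and no call. SERPINB13, a serpin of squamous epithelium, had 1.59 and 0.817 RPKM, against 2.36 RPKM in siNC. The protease inhibitor PI3 had 28.5 and 4.62 RPKM, against 35.8 RPKM in siNC, and the envelope precursor SPRR2D had 0.479 and 1.49 RPKM, against 1.89 RPKM in siNC. Among 20 tested transcription factors of stratified and urothelial epithelium, 8 stood below siNC and 0 above it in both siCDCA3 libraries, with no call. The other 12 went opposite ways. Of all tested genes 27.8% were lower and 23.6% higher in both. KLF4, a factor of epidermal barrier formation, had 1.62 and 2.90 RPKM in the siCDCA3 libraries, against 5.04 RPKM in siNC, and the AP-1 subunit gene JUNB had 73.1 and 55.8 RPKM, against 105 RPKM in siNC. Across these lists and the members, edgeR called 0 genes and PKP1, KRT16 and KRT17 had an unadjusted p under 0.05, while DESeq2 and limma also called 0. With low genes kept in, and a gene's own spread given next to no weight, KRT16 and ZNF750 were called lower. ZNF750, a factor of epidermal differentiation, had 0.102 and 0.0293 RPKM in the siCDCA3 libraries, against 0.771 RPKM in siNC (edgeR adjusted p = 0.03498 with low genes kept in).

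The genes nearest to KRT5 in their pair of log2(RPKM + 1) differences, among 1500 genes outside the members with a mean of at least 20 RPKM, were H1FX, MMP14, HSPB1, SAT1 and IFNGR1. The linker histone gene H1FX had 56.5 and 54.0 RPKM in the siCDCA3 libraries, against 112 RPKM in siNC, at a Euclidean distance of 0.043. The distance was 0.088 for the membrane protease gene MMP14 and 0.13 for IFNGR1, the farthest of the 5. Likeness over 2 differences that share siNC is a description of these 3 libraries.

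Reads of near-identical genes could be assigned to either copy. Of the 150-base windows, the stated read length, of the matched GENCODE 29 transcripts, 9.25% in KRT6A and 12.8% in KRT6B occurred exactly in another gene, chiefly KRT6C and each other. The share was 0.595% in KRT14 and 0.736% in KRT16, and it was 0% in KRT5, KRT17, KRT7, KRT8, KRT18 and KRT19. For 50-base windows it was 37.1% in KRT8 and 31.8% in KRT18, mostly processed pseudogenes, 47.1% in KRT6B and 39.1% in KRT6A, 23.8% in KRT14, 22.0% in KRT16 and 17.4% in KRT17, against 3.99% in KRT5, 1.79% in KRT19 and 0.997% in KRT7. The part of such sharing in the measured levels was not tested, and the KRT6A, KRT6B, KRT14 and KRT16 levels are uncertain to that extent. For reads or matches shorter than 150 bases the same can hold for KRT8, KRT18 and KRT17.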

How the data were processed

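RNA was measured in 3 libraries of 5637 cells (2 siCDCA3, 1 siNC). Per the labels' protocols, ribosomal RNA was removed and paired reads of 150 bases were taken. Per the submitters' processing notes, the tools were Trimmomatic 0.36, FastQC, HISAT2 and HTSeq. Strand use in counting was not given by these sources, and human and mouse builds are both listed without a role. The deposited table gave a whole-number count per RefSeq transcript and, per the file headers, RPKM, which the authors computed from count, length and 1 total per library. Other deposited values were transcript lengths. Coordinates came from RefSeq's GRCh38.p14 gene table, to which 98.6% of accessions matched. Through these, 103 symbols that had become dates were looked up.

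Counts of genes averaging at least 1 RPKM were tested with edgeR 4.0.16 (TMM, quasi-likelihood, two-sided, Benjamini-Hochberg, threshold 0.05, 1 residual degree of freedom). Standard errors were taken as |log2 fold change| / √F. Differences used log2(RPKM + 1), which understates the change of low genes. Alternatives were DESeq2 1.42.0, limma 3.58.1, other scalings, filters, transcripts, pseudocounts and left-out libraries. All members were named, and up to 3 genes of each other list by the size of the less changed siCDCA3 difference. Every other keratin with a mean of at least 1 RPKM was also named by rule, and VIM and ZNF750 were added after their values were seen. The values of 1 gene that this rule names are not reported here. Members and lists were chosen with earlier results of these data known.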

Additional observations from a re-analysis of the deposited data

How the results depend on the processing

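The siCDCA3 libraries carry numbers but the lone siNC library shares none. No paired analysis was possible because the groups share fewer than 2 replicate numbers. edgeR called 0 genes higher and 3 lower (36 higher and 98 lower at an unadjusted p under 0.05). Without a filter it called 4 higher and 18 lower, and DESeq2 called 2 and 8. With library totals only, with a mean RPKM of at least 5 and with limma, 0 genes were called lower. KRT16, at a log2 fold change of -2.57, was the only member called under any of these settings, and only without the filter.

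The basal sum difference was -1.08 and -1.51 as a mean of log2(RPKM + 0.1), which gives low genes equal weight. The basal over simple difference was -0.94, and -1.10 and -1.50 as means of log2(RPKM + 1) and log2(RPKM + 0.1). Leaving out a siCDCA3 library, the basal sum ran from -1.14 to -1.02, the ratio from -1.04 to -0.84 and the simple sum from -0.30 to 0.013, where it changed sign without siCDCA3-2. Simple keratins lower than siNC numbered 1 of 4, from 1 without siCDCA3-2 to 3 without siCDCA3-1, and basal ones 6 of 6 in each case. Over the same omissions the log2 fold change of KRT16 ran from -3.76 to -1.87, that of KRT8 from -0.11 (without siCDCA3-1) to 0.73, and that of KRT18 from -0.27 to 0.18 (without siCDCA3-2), opposite in sign to the joint fits of 0.37 and -0.027. None of the 20 member directions changed under 3 other scalings, which moved the median gene by at most 0.082. Counts of lower members under other settings were chosen after seeing the data. With 1 siNC library, its own deviation and the effect of siRNA cannot be told apart.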

Other observations

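Several epithelial genes, chosen here after their values were seen, differed between the siCDCA3 libraries, and not all stood apart from siNC in the same one. ELF3, an epithelial transcription factor, had 54.0 RPKM in siCDCA3-1 and 7.89 RPKM in siCDCA3-2, against 15.0 RPKM in siNC. SCEL, an envelope-associated protein, had 8.56 and 2.00 RPKM in the siCDCA3 libraries, against 1.92 RPKM in siNC. The serpins SERPINB3 (12.4 and 0.963 RPKM, against 7.07 RPKM in siNC) and SERPINB4 (4.20 and 0.218 RPKM, against 2.05 RPKM in siNC) were highest in siCDCA3-1 and lowest in siCDCA3-2. FOSL1, an AP-1 subunit, was ordered oppositely, with 6.59 RPKM in siCDCA3-1 and 53.6 RPKM in siCDCA3-2, against 18.2 RPKM in siNC. TP63, a factor of basal epithelium, had 6.30 and 12.4 RPKM, against 16.0 RPKM in siNC.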
